A study of Mus musculus with 12 samples.

Results

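The mature adipocyte is recognised by a set of genes that serve fat uptake, fat storage, insulin-driven glucose uptake and hormone release. A group of 10 such genes was followed here in 3T3-L1 cells at the start of differentiation, namely Fabp4, Cd36, Lpl, Plin1, Cidec, Slc2a4, Adipoq, Lep, Retn and Cfd. They were chosen by name, and their probes were all non-control probes on the array whose transcript accession belongs to one of these genes. This gave 14 probes on 32 spots, out of 41174 probes in all. Each of the 10 genes had at least 1 probe, among 18217 gene symbols on the array.

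All samples came from 3T3-L1, an established line of mouse fibroblasts able to become fat cells in culture. The cells were lysed without hormonal induction (0 h) or 6 h into treatment with insulin (5 µg/ml), dexamethasone (1 µM) and IBMX (0.5 mM). The authors grew the cells in newborn bovine serum and gave the agents in medium with fetal bovine serum. The change of serum thus cannot be told apart from the hormones. Each lysate was spun through a sucrose gradient. The non-polysomal pool was made of fractions 5 to 7, and the polysomal pool, with RNA that carries several ribosomes, of fractions 9 to 11. The 4 groups were thus non-polysomal and polysomal RNA at 0 h, neither with hormones, and both pools at 6 h with all 3 agents, and each group held 3 biological replicates on 1-color arrays.

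Fat cell genes fall into an early and a late wave. In the standard account, C/EBPβ and C/EBPδ respond first to the hormones, PPARγ and C/EBPα follow, and these switch on the genes of fat uptake and storage over the next days. Leptin, resistin, complement factor D and the insulin-regulated glucose transporter GLUT4 are usually counted among the late products. The question asked of the arrays was which of these late genes were already above background at 0 h or at 6 h, and in which of the RNA pools.

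The start regions of the members were looked at for letters that C/EBP factors can bind, and binding itself was not measured. RefSeq promoter windows (build GRCm38.p6) were at hand for 7 of the 10 genes, with 8 start sites in all because Cidec has 2 of them. The 250 bases before the start were searched on both strands for the C/EBP letters TTGCNNAA. They occurred in 3 of the 8 windows, against 9.56% of all 32851 windows in the table. The windows of Cidec, Plin1, Adipoq and Lep are shown because these genes cover the responses described below, from a gene that rose in polysomal RNA to one that was never detected. They run 5′ to 3′ on the strand of the gene, and capitals mark the C/EBP letters.
Cidec, chr6:113434765-113435014, minus strand: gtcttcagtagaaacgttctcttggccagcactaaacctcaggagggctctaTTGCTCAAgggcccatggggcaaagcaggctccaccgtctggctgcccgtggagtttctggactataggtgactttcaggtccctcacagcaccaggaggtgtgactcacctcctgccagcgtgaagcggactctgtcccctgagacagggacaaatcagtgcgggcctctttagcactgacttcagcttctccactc
Cidec, other start, chr6:113435761-113436010, minus strand: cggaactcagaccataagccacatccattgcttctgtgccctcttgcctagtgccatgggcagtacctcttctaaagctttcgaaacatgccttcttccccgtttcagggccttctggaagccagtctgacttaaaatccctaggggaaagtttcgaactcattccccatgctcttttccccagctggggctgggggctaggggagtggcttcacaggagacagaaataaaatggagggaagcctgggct
Plin1, chr7:79732777-79733026, minus strand: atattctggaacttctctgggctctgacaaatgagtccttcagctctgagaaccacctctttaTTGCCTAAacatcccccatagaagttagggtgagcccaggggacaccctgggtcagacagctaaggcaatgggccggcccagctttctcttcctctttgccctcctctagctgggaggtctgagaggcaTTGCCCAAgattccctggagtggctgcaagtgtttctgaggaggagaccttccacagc
Adipoq, chr16:23146286-23146535, plus strand: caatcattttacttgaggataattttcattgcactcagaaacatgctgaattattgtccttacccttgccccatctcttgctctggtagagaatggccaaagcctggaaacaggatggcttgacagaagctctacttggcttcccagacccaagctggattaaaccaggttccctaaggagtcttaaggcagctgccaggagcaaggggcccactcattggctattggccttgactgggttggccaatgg
Lep, chr6:29059971-29060220, plus strand: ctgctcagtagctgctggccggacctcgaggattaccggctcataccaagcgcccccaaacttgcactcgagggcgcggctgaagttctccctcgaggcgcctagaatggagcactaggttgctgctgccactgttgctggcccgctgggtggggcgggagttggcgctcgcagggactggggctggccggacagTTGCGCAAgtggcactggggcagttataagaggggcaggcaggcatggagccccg

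The capitals begin 198 bases before one start of Cidec, 187 and 58 bases before the start of Plin1 and 55 bases before the start of Lep. Adipoq and the other Cidec start had none in the window. A full PPAR response element, searched as a direct repeat of AGGTCA with 1 base between the copies, was in none of the 8 member windows and in 0.0335% of all windows. Cd36 alone held a single AGGTCA, 228 bases before its start, and 14% of all windows held these letters (every direct repeat is counted there too). These are matches of letters only. A window without a match says nothing about binding further away.

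Feature Extraction, the software that read the scans, rates each spot as well above background or not, and a probe was taken as detected in a group where most of its spots were rated so on each of the 3 arrays. Of the 14 probes, 9 were detected in every one of the 4 groups, and 48.9% of all probes on the array were detected that widely. These 9 probes stand for 6 genes, Fabp4 (3 probes), Lpl (2 probes), Cd36, Plin1, Cidec and Adipoq. The other 5 probes, of Slc2a4, Lep, Retn (2 probes) and Cfd, were detected in no group, as were 39.2% of all probes. No member was thus detected at 1 time only or in 1 RNA pool only.

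**Figure D1:**
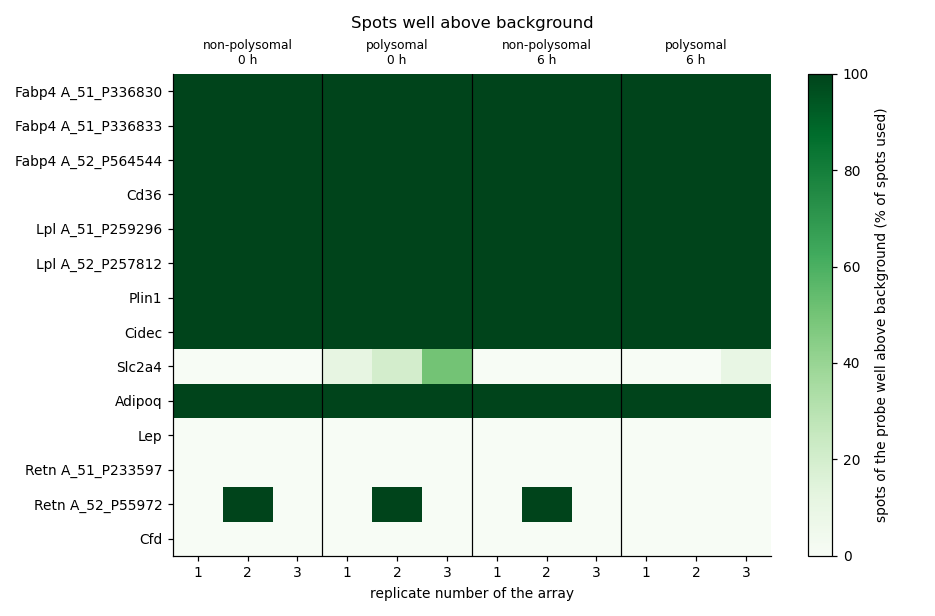
Share of the spots of each probe that were rated well above background (color, % of the spots used), for the 14 probes (rows) on the 12 arrays (columns, by group and replicate number). The 9 probes of 6 genes are full on all arrays, and the rows of Lep, Cfd and Retn A_51_P233597 are empty.

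Slc2a4 encodes GLUT4, the glucose transporter that insulin moves to the cell surface. Its probe A_51_P217498 (NM_009204) is printed 10 times on each array. Spots of it were rated well above background 8 times among the 29 used in polysomal RNA at 0 h, with 1, 2 and 5 spots on the 3 arrays. The same rating was given to 1 of 30 spots in polysomal RNA at 6 h, to 0 of 29 in non-polysomal RNA at 0 h and to 0 of 28 in non-polysomal RNA at 6 h. By this rating the probe came nearest to detection in polysomal RNA before induction, without reaching it. The rating is made on each array before any scaling. With arrays scaled by spike-ins, the lowest log2 signal rated well above background was 2.77 to 3.19 there and 3.39 to 3.75 in polysomal RNA at 6 h. The probe averaged 2.78 and 2.85 in these groups, so the spot counts do not show a higher level before induction. Its intensity stayed between 3.69 and 8.19 on all arrays. Even so, its averaged signal lay above 99.3% to 100% of the negative control spots of each array, which carry no mouse sequence.

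Lep encodes leptin, the hormone that reports fat stores to the brain. Its probe A_52_P374882 (NM_008493), also printed 10 times, had no spot well above background among 28, 28, 30 and 28 spots used in the 4 groups. The intensities of 1.71 to 2.85 exceeded between 33.1% and 100% of the negative control spots, depending on the array. Cfd encodes complement factor D (adipsin), a serine protease that fat cells secrete. Its single spot (A_51_P156955, NM_013459) was not well above background on any of the 12 arrays, with intensities of 1.73 to 5.12. In polysomal RNA at 6 h it lay above 99.3% to 100% of the negative control spots, while in polysomal RNA at 0 h it lay above 16.2% to 99.3% of them. In non-polysomal RNA it lay above 5.44% to 100% at 0 h, with intensities up to 4.82, and above 23.4% to 95.9% at 6 h.

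Retn encodes resistin, an adipokine of the mouse fat cell. The 2 Retn probes (NM_022984) differed from each other. A_51_P233597 was not well above background on any array, with intensities of 1.61 to 6.05. A_52_P55972 was rated well above background on 1 array each of non-polysomal RNA at 0 h, polysomal RNA at 0 h and non-polysomal RNA at 6 h, with intensities of 38.0, 13.4 and 8.13. All 3 of these arrays were of replicate 2, which is also 1 slide. On that same slide the spot read 2.03 in polysomal RNA at 6 h and was not well above background. For these 4 genes the differences between groups are bounded by the background on both sides, so no fold is given.

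The detected members were compared on the log2 scale, on which a difference of 1 is a 2-fold change. Arrays were set to a common level by spike-ins, control transcripts added to each sample. A probe was called where limma gave an adjusted p below 0.05 over all probes, the change was over 2-fold and the probe was detected in at least 1 of the groups compared. Because probes differ in brightness, levels were compared between groups and not between probes. Bulk RNA does not tell more cells with a transcript from more transcript per cell.

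In polysomal RNA the spike-ins put the median detected probe 0.54 higher at 6 h than at 0 h. The spike-in offsets behind this were -0.35, -0.48 and -0.21 for polysomal RNA at 6 h and 0.05 to 0.17 for the other 9 arrays. The spike-ins did not move together. Those with a mean log2 signal of 7.82 to 16.8 fell in polysomal RNA, as from 8.07 at 0 h to 7.24 at 6 h and from 13.49 to 12.6. Those at 18.3 to 19.06 changed less, as from 18.38 to 18.09 and from 19.05 to 19.03. By the dimmer spike-ins alone the polysomal differences over time would be higher, but that scaling was not run. Scaled to the 75th percentile or by quantiles, the median over all probes was 0.052 or 0.0077, and a line fitted to the spike-ins instead of an offset made it 1.43. Differences over time in polysomal RNA are therefore also given relative to the median of the detected probes.

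Cidec rose in polysomal RNA at 6 h. It encodes FSP27, a protein that sits on lipid droplets and helps them fuse into one large droplet. The log2 signal of its probe (A_51_P490456, NM_178373) was 3.89, 3.60 and 3.93 in non-polysomal RNA at 0 h and 4.00, 3.71 and 3.93 in polysomal RNA at 0 h. At 6 h it was 3.84, 3.82 and 3.83 in non-polysomal RNA and 5.39, 5.34 and 5.50 in polysomal RNA. The 3 arrays of polysomal RNA at 6 h thus stood clear of the other 9, which overlapped one another. The rise in polysomal RNA was 1.53 (SE 0.11, 2.89-fold, adjusted p = 8.2e-07), or 1.00 above the median detected probe. Among detected probes, 87.0% had a smaller difference. In non-polysomal RNA the difference was 0.025, with a 95% interval from -0.21 to 0.26. The intensities of this probe were low, from 12.6 to 39.2. The deposited log2 values, which carry no background subtraction, gave a difference of 0.92 and the normexp background correction gave 0.71, both under the 2-fold limit. The normexp values here include an offset of 50 added to every signal before the log, which makes log2 differences of dim probes smaller.

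Plin1 differed from Cidec. It encodes perilipin 1, the coat protein of the fat cell's lipid droplet that keeps lipases away from the fat. The log2 signal (A_51_P244497, NM_175640) was 6.20, 6.27 and 6.13 in polysomal RNA at 0 h and 5.19, 5.49 and 5.19 at 6 h. In non-polysomal RNA it was 5.28, 5.50 and 5.30 at 0 h and 4.97, 5.15 and 5.36 at 6 h. The polysomal arrays at 0 h lay above all others, and the remaining groups overlapped. The polysomal difference of -0.91 (SE 0.12, adjusted p = 0.00011) did not reach the 2-fold limit, but it was -1.44 relative to the median detected probe, and only 9.29% of detected probes had a lower difference. It passed the limit when arrays were scaled to the 75th percentile (-1.39), by quantiles (-1.11) or without replicate 2 of polysomal RNA at 6 h (-1.01). It was smaller with the deposited log2 values (-0.40) and with a line fitted to the spike-ins (-0.15).

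Fabp4, also known as aP2, carries fatty acids inside the cell and is the classic marker of 3T3-L1 differentiation. Of its 3 probes (NM_024406), 1 was called in polysomal RNA at 6 h. That probe, A_52_P564544, read 9.91, 10.19 and 9.97 at 0 h and 11.12, 11.12 and 11.27 at 6 h in polysomal RNA. In non-polysomal RNA it read 8.83, 8.91 and 8.79 at 0 h and 8.95, 8.90 and 8.90 at 6 h. The polysomal groups did not overlap and the non-polysomal groups did. Its polysomal rise was 1.15 (SE 0.09, 2.22-fold, adjusted p = 1.5e-06), or 0.61 above the median detected probe. It was under the 2-fold limit when arrays were scaled to the 75th percentile (0.66) or by quantiles (0.55).

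The other pair of Fabp4 probes was far brighter. A_51_P336830 read 14.31, 14.34 and 14.29 in non-polysomal and 15.39, 15.65 and 15.48 in polysomal RNA at 0 h, then 14.20, 14.23 and 14.23 in non-polysomal and 16.42, 16.45 and 16.56 in polysomal RNA at 6 h. A_51_P336833 read 14.31, 14.31 and 14.23 in non-polysomal and 15.28, 15.51 and 15.48 in polysomal RNA at 0 h, then 14.22, 14.15 and 14.20 in non-polysomal and 16.21, 16.16 and 16.15 in polysomal RNA at 6 h. Both were higher in every polysomal array at 6 h than in any at 0 h, by 0.97 and 0.75 (adjusted p = 2.5e-06 and 1.4e-05), under the 2-fold limit. Relative to the median detected probe these differences were 0.44 and 0.22. Their sign turned with quantile normalization, to -0.38 and -0.59. Intensities here reached 83648, and no non-control spot on any array was marked as saturated. Control spots, the spike-ins among them, were not counted for this.

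Cd36 and Lpl serve the entry of fatty acids. Lpl encodes lipoprotein lipase, the secreted enzyme that frees them from circulating triglycerides, and Cd36 encodes the membrane receptor that helps take them up. Cd36 (A_51_P375146, NM_007643) read 4.14, 4.36 and 4.55 in non-polysomal and 6.84, 7.06 and 7.00 in polysomal RNA at 0 h. At 6 h it read 4.60, 4.55 and 4.68 in non-polysomal and 7.45, 7.42 and 7.49 in polysomal RNA. The polysomal arrays lay above the non-polysomal ones at both times, and those at 6 h lay above those at 0 h. The polysomal difference over time was 0.49 (SE 0.11, adjusted p = 0.0030), or -0.049 relative to the median detected probe, and it was 0.0014 with scaling to the 75th percentile.

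The 2 Lpl probes (NM_008509) went opposite ways over time. A_51_P259296 read 15.13, 15.35 and 15.34 in polysomal RNA at 0 h and 14.95, 14.86 and 14.92 at 6 h, a difference of -0.36 (adjusted p = 0.0033). A_52_P257812 read 12.95, 13.09 and 13.10 at 0 h and 13.47, 13.32 and 13.44 at 6 h, a difference of 0.36 (adjusted p = 0.0025). Neither passed the 2-fold limit as scaled here, and relative to the median detected probe they were -0.90 and -0.18. With quantile normalization both were lower at 6 h, by -1.69 and -0.58, and scaling to the 75th percentile gave -0.85 and -0.13. In non-polysomal RNA A_51_P259296 read 12.53, 12.69 and 12.54 at 0 h and 12.63, 12.55 and 12.55 at 6 h, which overlapped. A_52_P257812 read 10.03, 10.15 and 10.11 at 0 h and 9.75, 9.64 and 9.68 at 6 h, a difference of -0.41 (adjusted p = 0.0014). The probes share the gene and its accession, and no single direction over time can be given for Lpl.

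Adipoq encodes adiponectin, the most abundant hormone of fat tissue. Its probe (A_51_P458451, NM_009605) read 3.51, 3.63 and 4.01 in non-polysomal RNA at 0 h and 4.24, 4.39 and 4.25 at 6 h. In polysomal RNA it read 6.08, 6.20 and 6.19 at 0 h and 7.05, 6.98 and 7.13 at 6 h. The signal was higher at 6 h on every array of both pools, by 0.89 in polysomal (SE 0.12, adjusted p = 0.00012) and by 0.58 in non-polysomal RNA (adjusted p = 0.0030). Both differences were under 2-fold, and the polysomal one was 0.36 relative to the median detected probe. The non-polysomal difference was 0.19 with the deposited log2 values (adjusted p = 0.11) and 0.14 with normexp (adjusted p = 0.19).

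**Figure D2:**
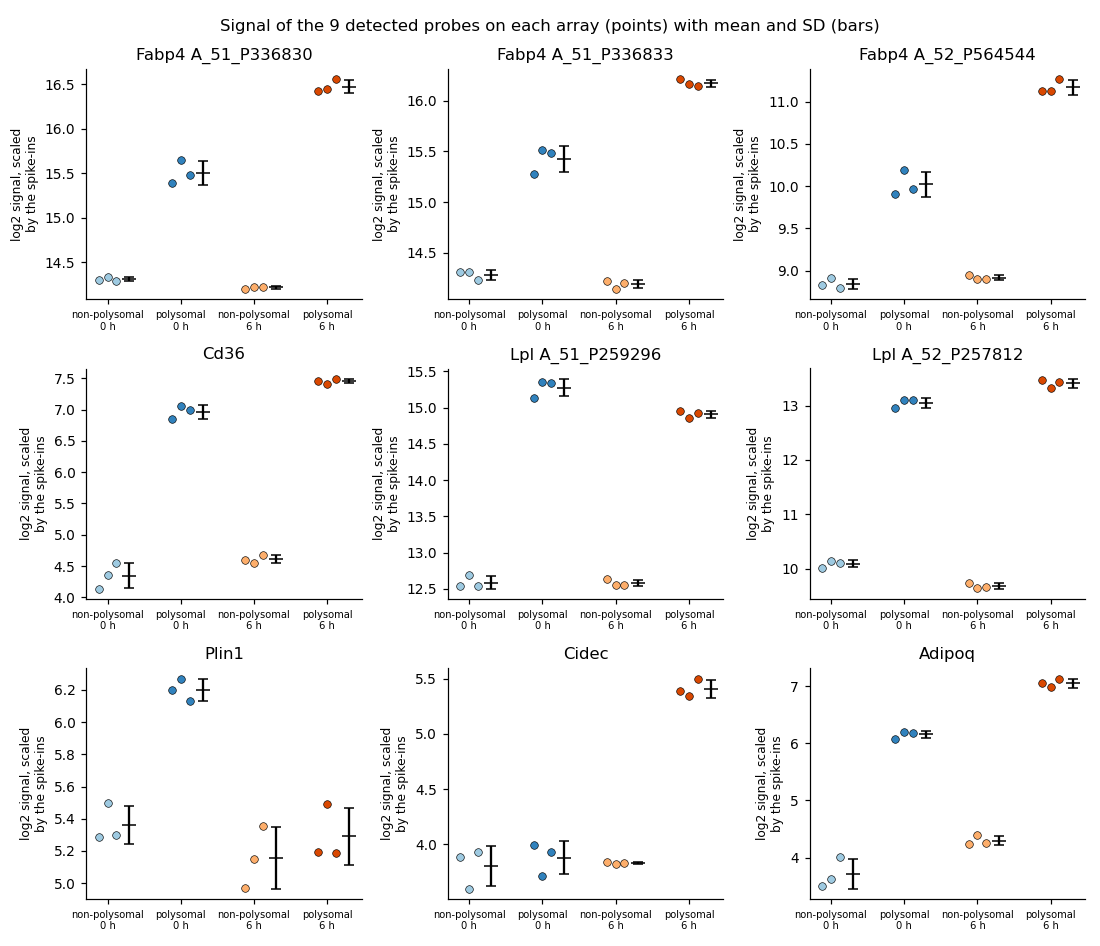
Log2 signal scaled by the spike-ins (vertical axes, which differ between panels) of the 9 detected probes on each array (points), with the mean and SD of 3 arrays (bars), in the 4 groups. Cidec stands out in polysomal RNA at 6 h only, Plin1 in polysomal RNA at 0 h only, and the other 7 probes are higher in polysomal than in non-polysomal RNA at both times.

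Among the 9 detected probes, 2 were thus called higher in polysomal RNA at 6 h and 0 lower, where 27.7% of the detected probes of the array were called higher and 7.97% lower. At an adjusted p below 0.05 and any size, 7 members were higher and 2 lower, against 58.1% and 19.3% of detected probes. The median difference of the 9 probes was 0.75, beside 0.54 for all detected probes. In non-polysomal RNA 0 members were called, where 12.9% of detected probes were called higher and 12.4% lower. There 1 member was higher and 1 lower at an adjusted p below 0.05 by limma, against 34.0% and 32.0% of detected probes, and the median of the 9 was -0.0089. At an unadjusted p below 0.05, 3 of the 9 probes differed, against 71.4% of detected probes. The share of members called was below the background share of calls in non-polysomal RNA.

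**Figure D3:**
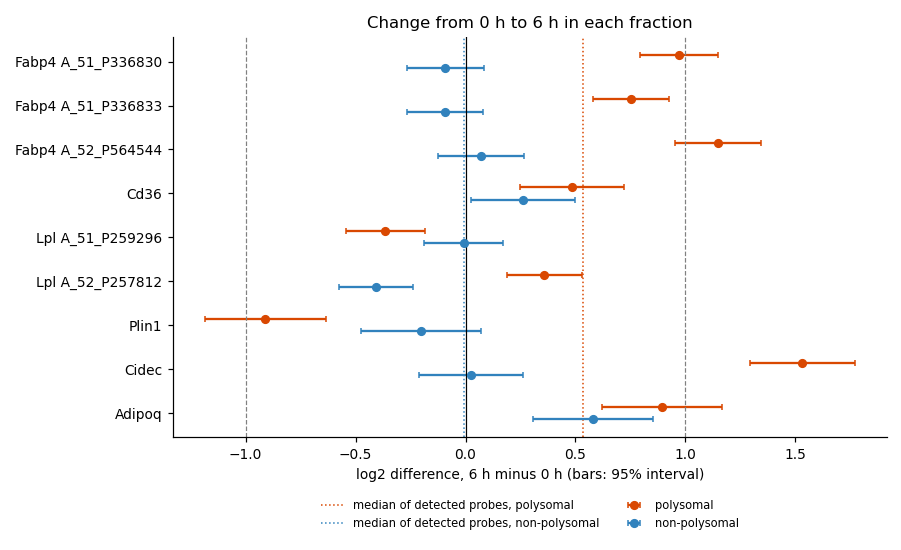
Log2 difference between 6 h and 0 h (horizontal axis, points with 95% intervals) of the 9 detected probes in polysomal (orange) and non-polysomal RNA (blue). Dashed lines mark the 2-fold limit and dotted lines the median of all detected probes, 0.54 in polysomal RNA; Cidec and Fabp4 A_52_P564544 lie beyond the limit.

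**Figure D4:**
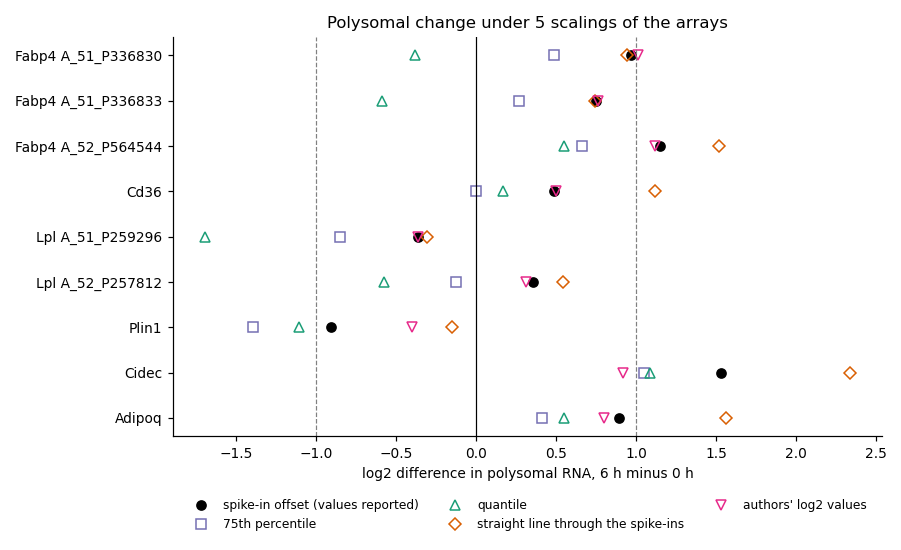
Log2 difference between 6 h and 0 h in polysomal RNA (horizontal axis) of the 9 detected probes under 5 scalings of the arrays (symbols). Cidec and Adipoq stay above 0 and Plin1 and Lpl A_51_P259296 below 0 under each of the 5, while 2 probes of Fabp4 and the other of Lpl change sides.

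Before induction most detected member probes were higher in polysomal RNA, with a median excess of 1.19 beside 0.80 for all detected probes. This was not particular to the members. For the gene lists described below the median ran from -0.16 (macrophage markers) to 2.29 (preadipocyte and fibroblast markers), with 1.405 for other late fat cell genes. At 0 h, 7 of the 9 detected probes, of 4 genes, were called higher in polysomal than in non-polysomal RNA, against 44.2% of detected probes, and 0 were called lower, against 14.4%. The polysomal excess was 2.69 and 2.95 for the Lpl probes (6.43-fold and 7.74-fold), 2.62 for Cd36 (6.14-fold) and 2.44 for Adipoq (5.42-fold), each with an adjusted p below 0.05 and each above at least 92.7% of detected probes. The size for Cd36 and Adipoq depended on how background was treated, and the normexp values also carry the added offset of 50. With the deposited log2 values it was 1.63 for Cd36 and 1.29 for Adipoq, and with normexp it was 1.26 and 0.87, the last under the 2-fold limit. The 3 Fabp4 probes had 1.19, 1.14 and 1.18, against a median of 0.80 over all detected probes.

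Plin1 at 0 h had a polysomal excess of 0.84 (adjusted p = 0.00014), under the 2-fold limit and close to the median detected probe. It was -0.049 when arrays were scaled to the 75th percentile. Cidec had an excess of 0.074, with a 95% interval from -0.16 to 0.31, and this value turned negative under 4 of the other scalings and background treatments. Fabp4 kept its sign under the scalings run, but its excess was between 0.25 and 0.30 with scaling to the 75th percentile, and that of A_52_P564544 was 0.29 with quantiles.

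At 6 h the same comparison called 8 of the 9 probes higher in polysomal RNA and 0 lower, against 56.9% and 10.0% of detected probes. Cidec joined with 1.58 (SE 0.11, 2.99-fold, adjusted p = 2.5e-07). This excess of Cidec was under the 2-fold limit with the 75th percentile (0.27, adjusted p = 0.10), quantiles (0.88), the deposited log2 values (0.90) and normexp (0.69). The Fabp4 probes stood at 2.25, 1.99 and 2.26 and the Lpl probes at 2.33 and 3.72. With the 75th percentile the Fabp4 values were 0.94, 0.67 and 0.94. Cd36 stood at 2.84 and Adipoq at 2.75, and normexp gave 1.64 and 1.45. The higher Lpl value, a 13.1-fold excess, exceeded 99.0% of detected probes. Plin1 had 0.13, with a 95% interval from -0.14 to 0.41, and was -1.18 and -0.65 under scaling to the 75th percentile and by quantiles.

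**Figure D5:**
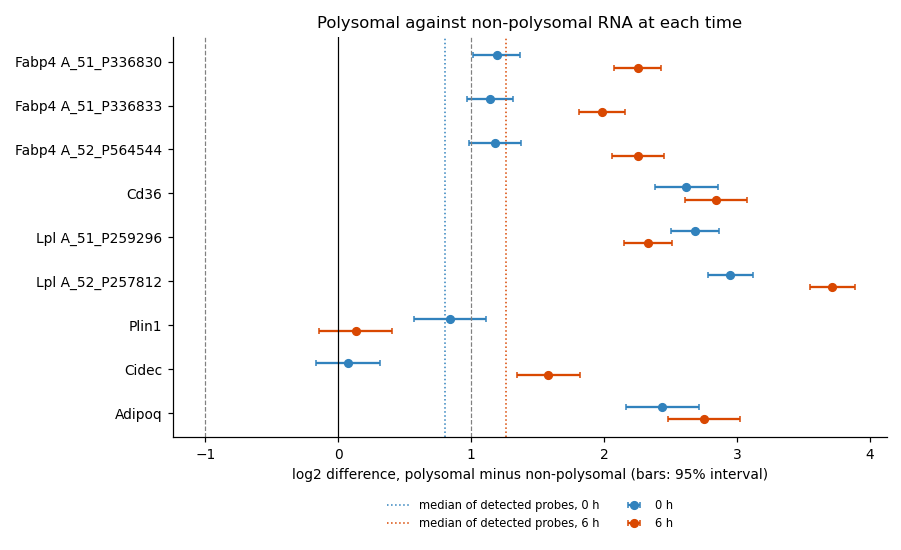
Log2 difference between polysomal and non-polysomal RNA (horizontal axis, points with 95% intervals) of the 9 detected probes at 0 h (blue) and 6 h (orange), with dotted lines at the median of all detected probes, 0.80 and 1.26. The values of Cidec and Fabp4 are higher at 6 h than at 0 h, that of Plin1 is lower, and Adipoq and Cd36 kept overlapping intervals.

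Whether the distribution differed between the times was tested by M, the polysomal excess at 6 h minus that at 0 h. M was called for 3 probes of 2 genes, Cidec (1.51, SE 0.15, adjusted p = 6.2e-05) and 2 of the 3 Fabp4 probes (1.06 and 1.08), against 17.0% of detected probes called higher, and 0 were called lower, against 1.89%. At an adjusted p below 0.05 and any size, 5 members were higher and 2 lower, against 47.2% and 6.24%. The median detected probe had an M of 0.49. For Cidec M was 1.45, 1.41 and 1.66 on the 3 slides, each of which held 1 array of every group, and it exceeded 94.4% of detected probes. Its call was lost with quantiles (0.89), the deposited log2 values (0.91) and normexp (0.66). The calls of both Fabp4 probes were lost with the 75th percentile (0.64 and 0.65). For Adipoq (0.31) and Cd36 (0.22) the 95% intervals ran from -0.07 to 0.70 and from -0.11 to 0.56.

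The genes around the members help to place them. All 12 preadipocyte and fibroblast markers of the list used here were detected in every group, as were 48.9% of all probes on the array. Called genes were 3 higher and 1 lower in polysomal RNA at 6 h. For this and the lists that follow, the shares of all detected probes are 27.7% called higher and 7.97% lower. Dlk1, the inhibitor of adipogenesis also called Pref-1, was higher by 1.25, Thy1 by 1.23 and vimentin (Vim) by 1.11, although quantile normalization gave -0.077 for Dlk1, -0.031 for Thy1 and 0.13 for Vim. Pdgfra was lower by -1.26 with 1 probe, while its other probe had -0.029. Of marker genes of other tissues, 4 of 7 macrophage, 2 of 6 endothelial and 3 of 6 skeletal muscle genes were detected in every group. The summed macrophage marker signal was 10.2 to 10.5 at 0 h and 11.7 at 6 h in polysomal RNA on the log2 scale. The skeletal muscle sum was 10.5 to 10.6 and 11.8, the fibroblast sum 20.1 to 20.2 and 20.7, and the endothelial sum 7.29 to 7.5 and 7.54 to 7.67. These sums of unlogged signal are carried by the brightest genes. Acta1 alone was at 10.45 and 11.73 in polysomal RNA at 0 h and 6 h, and Cd14 at 9.65 and 11.23. In polysomal RNA at 6 h, 3 macrophage genes, 1 endothelial gene and 1 muscle gene were called higher, and 0 of these lists lower. The endothelial gene was Cdh5. With 1 probe it was detected in polysomal RNA at 6 h only, and was at least 3.255-fold higher there than at 0 h. Its other probe was detected in no group. The part of these markers in the members' changes was not tested.

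Of 9 adipogenic transcription factors, 7 were detected in every group, beside 48.9% of all probes. Cebpd missed this count although it was bright. Its mean log2 signal was 14.23 and 16.31 in non-polysomal and polysomal RNA at 0 h, and 13.95 and 17.29 at 6 h. It was counted on 2 of the 3 arrays of non-polysomal RNA at 0 h. A probe whose spots were all dropped as outliers on an array was counted there as not detected. Cebpb, the early factor, rose by 4.35 in polysomal and 2.82 in non-polysomal RNA. Cebpa rose by 1.2 in polysomal RNA, and was at 0.72 with the 75th percentile and 0.58 with quantiles, under the 2-fold limit. Ebf1 and Nr1h3 (LXRα) were lower, at -1.63 and -1.62. Pparg, the master regulator of the late genes, was detected in every group and had a polysomal difference of -0.050 (adjusted p = 0.64), which was 0.28 with the line fitted to the spike-ins, -0.53 with the 75th percentile and -0.76 with quantiles. Klf15 was detected on all 3 arrays of non-polysomal RNA at 0 h only, with 1 of its 2 probes.

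A longer list of other late fat cell genes moved both ways. Of 34 genes, 31 had a probe and 20 of these were detected in every group, beside 48.9% of all probes. In polysomal RNA 26 were detected at 0 h or 6 h. At 6 h, 7 were called higher and 6 lower, beside 27.7% and 7.97% of all detected probes. Dgat2, which makes triglyceride, rose by 3.02, Fitm2, which helps lipid droplets form, by 2.30, and caveolin 1 (Cav1) by 2.13. Angptl4, an inhibitor of lipoprotein lipase, was lower at -2.67 and perilipin 2 (Plin2) at -2.16. Trarg1 was detected on all arrays at 0 h and on none at 6 h, and was at least 2.33-fold lower in polysomal RNA. The deposited log2 values, without background subtraction, gave -0.38 for it. The directions of these 6 genes were the same under the scalings run. The median difference of the detected probes of this list was 0.61, beside 0.54 for all.

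The probes most like the 2 called members over the 12 arrays were sought among 19440 detected probes of other genes, by the root mean square difference of the centred log2 values. Cidec was closest to Ifitm2 (0.12), Slc35d1 (0.13) and Sec24a (0.14). Fabp4 A_52_P564544 was closest to both probes of Uchl4 (0.049 and 0.063) and to Set (0.065). All of these were higher in polysomal RNA at 6 h by 0.99 to 1.60 and differed by at most 0.23 in non-polysomal RNA. This likeness follows from how they were sought and is no separate result.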

How the data were processed

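Cy3 intensities per spot were deposited as made by Feature Extraction 10.7.1.1 with a design annotated to mm9. The signal used is background-subtracted and detrended by that software but not normalized between arrays. The authors also deposited log2 values per probe, which proved to be log2 median pixel intensities averaged over spots plus a constant per array, and these served as an alternative only.

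Spots marked as outliers were dropped, log2 signals of the spots of a probe were averaged, and an offset from 10 spike-in transcripts (32 spots each) was subtracted. Probes were named through RefSeq accessions (64.8% of 41174). The 4 groups were fitted together in R 4.3.3 with limma 3.58.1 (data.table version 1.17.8) and p-values were adjusted by Benjamini-Hochberg over all probes. On simulated data with 100 changed probes at each size, 97% of those with a log2 change of 1.5 and 99% with 3 were called. There were 5 false calls among 40808 probes. This is not the rate of false calls among the calls reported here. Signal over background limits the precision. The 75th percentile of intensity was 224 to 528, and 55.6% to 60.7% of probes per array were well above background.

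The members and lists were chosen with earlier results of these data known. Named were every member probe, per list and direction the 3 genes with the largest called change in polysomal RNA, and the 3 closest probes of each member called over time. Promoter windows were not at hand for Fabp4, Lpl and Slc2a4. Alternatives were other scalings, the deposited log2 values, normexp, filters, the slide as a block, a variance trend, the mean over probes, other detection rules and leaving out arrays or slides.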

Additional observations from a re-analysis of the deposited data

Results flagged for a closer look

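The change over time differed between the RNA pools, by the test of M (limma, adjusted p below 0.05), for 7 of the 9 detected probes, 5 higher and 2 lower. Of all detected probes 47.2% were higher and 6.24% lower by the same test. For Cidec M was 1.51, with changes of 1.53 in polysomal and 0.025 in non-polysomal RNA (adjusted p = 6.2e-05). The Fabp4 probes A_51_P336830, A_51_P336833 and A_52_P564544 had an M of 1.06, 0.85 and 1.08 (adjusted p = 8.0e-05, 0.00025 and 0.00013). The Lpl probes disagreed again, with -0.36 for A_51_P259296 (adjusted p = 0.035) and 0.76 for A_52_P257812 (adjusted p = 0.00043). For Plin1 M was -0.71, with changes of -0.91 in polysomal and -0.20 in non-polysomal RNA (adjusted p = 0.0098), and 4.70% of detected probes had a lower M. These values stand beside the median M of 0.49 over all detected probes.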

How the results depend on the processing

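Detection counts of the members were the same under both other detection rules, and 0 members were called in non-polysomal RNA over time under every alternative. Leaving out single arrays or slides gave 2 to 3 calls in polysomal RNA over time, 7 between the pools at 0 h, 8 at 6 h and 3 for M. The third call was Fabp4 A_51_P336830 (1.04) without replicate 2 of polysomal RNA at 0 h and (1.06) without replicate 2 of all groups, and Plin1 (-1.01) without replicate 2 of polysomal RNA at 6 h. With the replicate number, which is also the slide, as a block, the counts of calls were 2, 0, 7, 8 and 3 as without it, and no call changed. Deviations of same-numbered arrays correlated between -0.081 and 0.21, and 3 of 18 pairs exceeded 0.1. Those of arrays with different numbers correlated between -0.189 and 0.119. Correlations this weak do not decide whether the numbers pair the samples.

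Scaling moved the counts most. In polysomal RNA over time 4 members were called with a line fitted to the spike-ins and 1 with normexp. Between the pools 4 were called at 0 h with the 75th percentile, and 5 at 6 h with the 75th percentile (4 of them higher) and 5 with quantiles. For M 1 was called with quantiles (lower) and 6 with the line. Averaging the probes of a gene gave 1 gene called in polysomal RNA over time and 1 for M, in place of 2 each.

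Signs turned as follows. Over time in polysomal RNA, quantiles gave -0.38 and -0.59 for Fabp4 A_51_P336830 and A_51_P336833 and -0.58 for Lpl A_52_P257812, which had -0.13 with the 75th percentile. Over time in non-polysomal RNA, Cidec had -0.036 with the 75th percentile and -0.14 with the line (-0.078 to 0.086 leaving out arrays), Fabp4 A_52_P564544 had -0.0059 with quantiles and -0.021 with the line, and Lpl A_51_P259296 had 0.021 with the deposited log2 values and 0.036 with normexp (-0.062 to 0.053 leaving out arrays). Between the pools at 0 h, Cidec had -0.82 with the 75th percentile, -0.0071 with quantiles, -0.069 with the line and -0.0066 with the deposited log2 values (-0.029 to 0.16 leaving out arrays), and Plin1 had -0.049 with the 75th percentile. At 6 h Plin1 had -1.18 with the 75th percentile and -0.65 with quantiles. For M the 75th percentile gave -0.11 for Adipoq and -0.20 for Cd36, quantiles gave -0.22 for Adipoq, -0.24 for Cd36, -0.0018 and -0.20 for Fabp4 A_51_P336830 and A_51_P336833 and -0.053 for Lpl A_52_P257812, and the line gave 0.20 for Plin1. The cause was not tested.

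The files hold no mean pixel signal, so normexp used the median. Fitted to all spots, its background mean ran to -932, -946 and -213 on 3 arrays, so that form was not used. The values above are from a fit without spots of non-uniform background, a choice made after seeing the data. An offset of 50 was then added to every signal before the log. From the values reported to normexp the pool difference at 0 h moved most, among detected members, for Adipoq (2.44 to 0.87) and Cd36 (2.62 to 1.26). The effect of the offset was not separated from that of the background correction. RNA below the reach of the array was not measured.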
